A study of Mus musculus with 12 samples.

Results

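Hepatocyte identity is held by a small network of transcription factors, and 9 of its genes were followed here: Onecut1 and Onecut2, Hnf4a, Foxa1, Foxa2 and Foxa3, Cebpa, Prox1 and Nr5a2. They were taken by name as the hepatocyte nuclear factor network, and the network was selected on the scaled counts of Onecut1, which had been seen to differ with the diet of the offspring in these same data. All 9 were found among the 12086 genes of the table, and all 9 passed the minimum of a value of 1 in 3 libraries, which every gene in the table met. The offspring diet difference of Onecut1 is therefore given below as a description with no test.

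The data are RNA sequencing of whole liver from wild type male C57BL/6 mice killed fasted at 12 weeks (postnatal day 84). Dams ate a control chow (3% lipid, 7% simple carbohydrate) or an obesogenic diet (20% lipid, 10% simple carbohydrate, and sweetened condensed milk beside it), before mating and until weaning, and their sons ate either diet from day 21. CC had control diet for dam and offspring, CO had a control-fed dam and an obesogenic offspring diet, OC had an obesogenic-fed dam and a control offspring diet, and OO had the obesogenic diet in both generations. Of 12 labelled samples, 3 per group, 11 libraries could be used: 3 each of CC, OC and OO, and 2 of CO. Libraries are called CC.0 to OO.2, and no source used here says which offspring were litter mates, so p-values measure the spread between these libraries.

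HNF4A, the FOXA proteins and C/EBP alpha (Cebpa) bind the control regions of much of the adult liver programme, and the FOXA proteins are known as pioneer factors that open chromatin. ONECUT1, also called HNF6, and its relative ONECUT2 carry a cut domain and a homeodomain, act early in the differentiation of hepatocytes and bile ducts, and in the adult liver help to regulate glucose and bile acid genes. NR5A2, also called LRH-1, is a nuclear receptor of bile acid and cholesterol metabolism, and PROX1 is a homeobox factor that acts as a corepressor of HNF4A and NR5A2. The factors bind each other's genes, so that the network holds itself up in the adult liver.

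Because these factors are known to bind each other's genes, the sequence before their start sites was read for the letters they bind. RefSeq windows of 250 bases ending at the start site (build GRCm38.p6, read on the strand of the gene) were found for 8 of the 9 genes, 13 windows in all. No window of Onecut2 was used. The ONECUT core letters ATTGAT, searched on both strands, were in 2 of these 13 windows, those of Hnf4a and Foxa2, and in 6.72% of all 32851 windows of that length. The sequences of both are printed with that of Onecut1, the gene with the largest diet difference of the 9, and capitals mark the ONECUT letters.

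Onecut1, chr9:74861671-74861920, plus strand, none of the searched letters: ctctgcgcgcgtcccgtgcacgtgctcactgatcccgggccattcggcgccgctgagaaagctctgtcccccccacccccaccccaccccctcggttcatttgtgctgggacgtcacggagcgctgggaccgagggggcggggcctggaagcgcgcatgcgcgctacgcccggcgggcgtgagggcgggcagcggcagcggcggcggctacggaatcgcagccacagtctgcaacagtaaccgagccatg
Hnf4a, chr2:163506607-163506856, plus strand, before the more upstream of its start sites in the table: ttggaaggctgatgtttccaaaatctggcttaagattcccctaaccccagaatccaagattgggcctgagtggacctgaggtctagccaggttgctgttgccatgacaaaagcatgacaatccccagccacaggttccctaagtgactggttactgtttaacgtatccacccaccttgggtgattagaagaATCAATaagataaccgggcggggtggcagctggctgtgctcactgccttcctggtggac
Foxa2, chr2:148046970-148047219, minus strand, before the most upstream of its start sites in the table: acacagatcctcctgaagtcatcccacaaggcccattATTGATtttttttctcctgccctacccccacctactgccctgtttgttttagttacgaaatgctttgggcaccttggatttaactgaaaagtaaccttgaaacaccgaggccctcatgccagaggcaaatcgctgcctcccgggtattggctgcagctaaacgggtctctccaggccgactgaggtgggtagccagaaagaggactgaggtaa

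In Hnf4a the letters stood on the opposite strand, 59 to 54 bases before the start, and in Foxa2 on the strand of the gene, 213 to 208 bases before it. The windows before the other start sites of Hnf4a and Foxa2 held none of the searched letters. Which start site these livers used was not examined. Of the other letters searched, the FOXA letters TGTTTAC were in the window of Foxa1 itself (3.17% of all windows) and the C/EBP letters TTNNGCAA in 1 window of Nr5a2 (9.56%). The FOXA variant TATTTAC (2.73% of all windows), the HNF4A letters CAAAGTCCA (0.384%) and the NR5A2 letters CAAGGNCA (5.53%) were in none of the 13. A match is a run of letters and not a measured binding site, and no binding was measured in these livers.

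Values are scaled counts, close to CPM in size, and the depth recovered from them was 3976158 to 27837610 reads per library. The highest depth was that of OO.0 alone, and the next highest was 7969056 in OC.0. Several libraries stood apart from the rest. Summed over the 16 of 24 measured markers of pancreatic acinar cells, OC.0 reached 6897, CO.1 4388 and CC.1 1030. The other 8 libraries lay between 7.60 and 145, and up to 8 of the 16 markers were at 0 there. Acute phase genes, which the liver turns on in inflammation, summed to 41360 in CO.1 and 28410 in OC.1 and to 5322 to 9021 elsewhere. Secreted and identity genes of hepatocytes, the labelled tissue's own markers, were present in every library at a summed level of 97140 to 135900, with none of the 23 at 0. In whole liver, fewer cells of a type and less RNA per cell cannot be told apart.

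Onecut1 (ENSMUSG00000043013) stood lowest in the livers of chow-fed offspring. Its scaled count was 5.38, 13 and 3.34 in the CC libraries and 5.70, 14.6 and 7.68 in the OC libraries. Offspring on the obesogenic diet had 66.5 and 51.0 in CO and 15.2, 30.7 and 24.4 in OO. Every obesogenic-fed liver was thus above every chow-fed liver, with OO.0 closest to the highest chow-fed value. Means were 7.25 ± 5.10 (SD, n = 3) in CC, 58.8 ± 11 (SD, n = 2) in CO, 9.33 ± 4.67 (SD, n = 3) in OC and 23.5 ± 7.79 (SD, n = 3) in OO. On the scale of log2(value + 0.5), which is used for all differences below, CO exceeded CC by 3.13 (SE 0.49) and OO exceeded OC by 1.33 (SE 0.44), and the average of the 2 was 2.23 (SE 0.33).

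**Figure D1:**
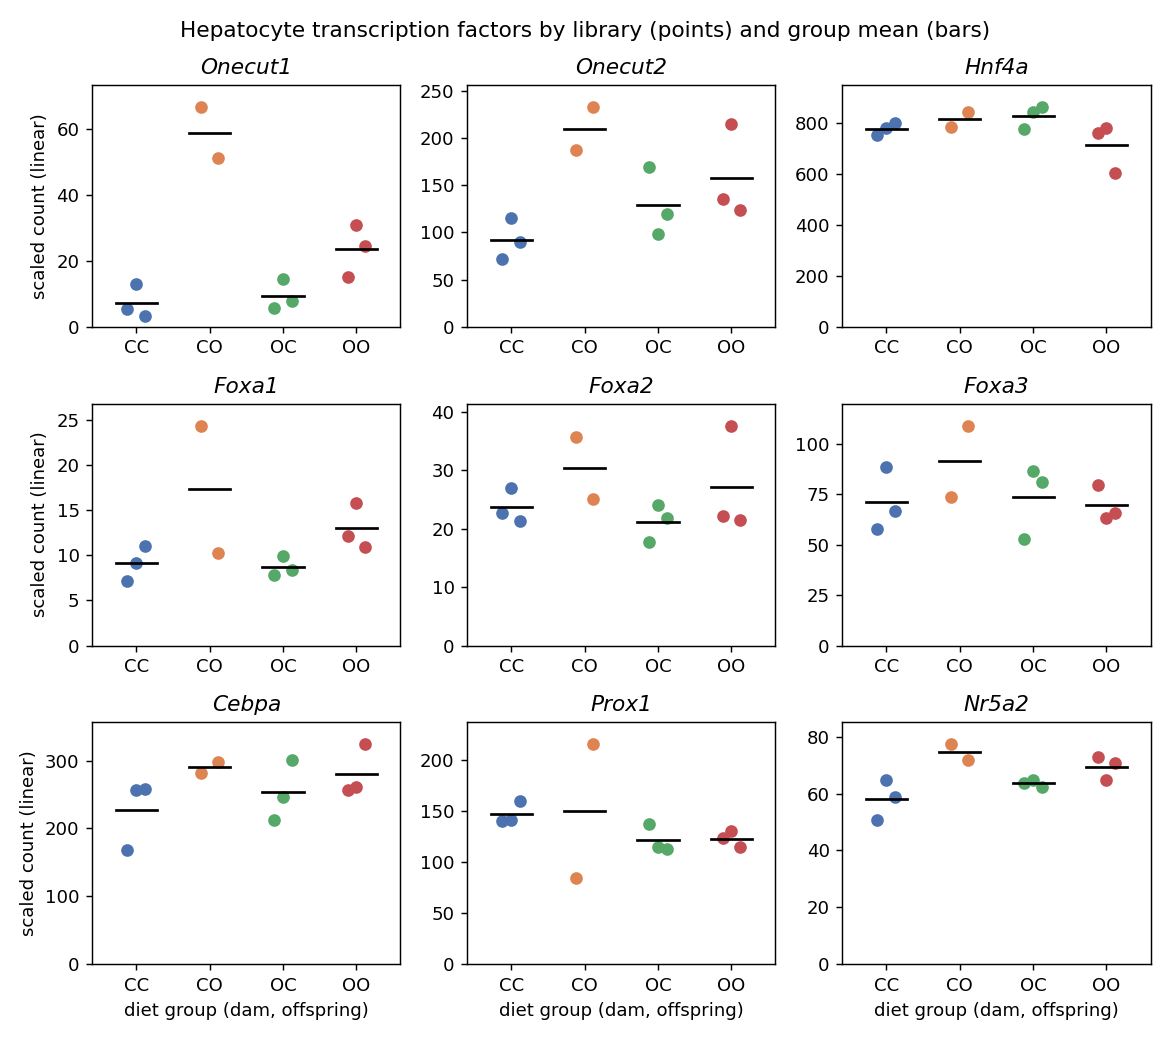
Scaled counts (linear axis from 0) of the 9 transcription factors in each library (points) of the groups CC, CO, OC and OO, with the group mean as a bar. Onecut1 is at 15.2 or more in every CO and OO library and at 14.6 or less in every CC and OC library, while Hnf4a lies between 602.5 and 863.8 in all 11.

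The maternal diet alone left Onecut1 within the spread. OC minus CC was 0.44 (SE 0.44, adjusted p = 0.931 by limma), with a 95% interval of -0.51 to 1.4. Among obesogenic-fed offspring, OO stood below CO without overlap (as 20% of all genes did in either direction), by 1.35 on the log2 scale (SE 0.49), and the adjusted p was 0.833. The interaction, (OO minus OC) minus (CO minus CC), was -1.79 (SE 0.66, adjusted p = 0.936). Both of these last values share the CO libraries, whose high Onecut1 was part of what drew attention to the gene, and neither passed the test.

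A large exon overlap with another gene limits the count of Onecut1 and of none of the other 8 genes. Cebpa and Prox1 share only 1.9% and 1.6% of their exon bases, with genes on the opposite strand. In the GENCODE M21 annotation, a long noncoding gene on the same strand, Gm20649 (ENSMUSG00000093662), shares 2171 exon bases with Onecut1, 52.8% of its exon length, and Gm20649 was singled out after its values were seen. Dividing the value of Onecut1 by the value of 1 read gave a whole number of reads in 2 of 11 libraries, with a tolerance of 0.01, and in 11 of 11 for each of the other 8. Those 2 libraries, OC.1 and OO.0, are the ones where Gm20649 is listed at 0. Elsewhere Gm20649 had 2.26, 3.39 and 4.19 in CC, 0.713 and 20.4 in CO, 1.58 and 4.13 in OC.0 and OC.2, and 4.64 and 6.28 in OO.1 and OO.2. No source used here says how reads shared by both genes were divided.

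Summing both genes, an alternative added after the data were seen, left the order of the groups as it was and drew the CO libraries together. The summed values were 7.64, 16.4 and 7.53 in CC, 67.2 and 71.4 in CO, 7.28, 14.6 and 11.8 in OC, and 15.2, 35.4 and 30.7 in OO. The coefficient of variation in CO was 18.7% for Onecut1 alone and 4.2% for the sum. In CC it went from 70.4% to 48.4%, in OC from 50.1% to 32.9%, and in OO it rose from 33.2% to 38.9%. The highest chow-fed value, 16.4 in CC.1, then lay above the lowest obesogenic-fed value, 15.2 in OO.0. CO exceeded CC by 2.75 and OO exceeded OC by 1.2. With the sum, OC minus CC was 0.13 (SE 0.36, adjusted p = 0.98) and OO minus CO was -1.42 (SE 0.40, adjusted p = 0.749).

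**Figure D2:**
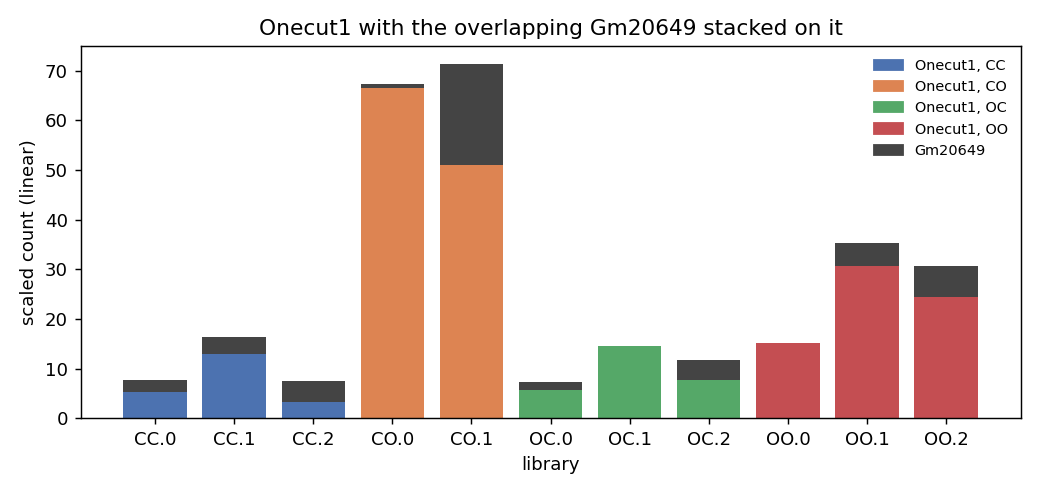
Scaled counts (linear axis from 0) in each library of Onecut1 (coloured by group) with the overlapping noncoding gene Gm20649 stacked on it (dark). The CO bars reach 67.2 and 71.4 in total although their Gm20649 values are 0.713 and 20.4.

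The libraries that stood apart by summed pancreatic or acute phase level had both high and low Onecut1. OC.0, with the most pancreatic transcripts, had 5.70, and CO.0, with a pancreatic sum of 109, had the highest Onecut1 of all. CO.1 and OC.1, rich in acute phase transcripts, had 51.0 and 14.6, which were the lower of the CO values and the highest of the chow-fed ones. By the median log2 difference from the CC mean, acute phase genes stood at 0.97 and 2.75 in CO.0 and CO.1. They stood at 0.09, 0.78 and 0.57 in OO and at 0.20, 1.91 and -0.15 in OC. All 16 measured had an average offspring diet difference above 0, with a median of 0.93. By limma 4 of the 16 were called, beside 3.96% of all genes. Without OC.0 and CO.1 the average offspring diet difference of Onecut1 was 2.18, and without OC.1 and CO.1 it was 2.50. ONECUT1 is also made in bile duct cells, so cholangiocyte markers were followed beside it. Their summed level, over the 8 of 14 markers measured, was 56.9 to 72.7 in CC, 101 to 103 in CO, 64.4 to 73.3 in OC and 92.2 to 131 in OO, thus higher in every obesogenic-fed liver, and none of the 8 was at 0. By limma 0 of the 8 passed the average offspring diet test (6 had an unadjusted p under 0.05), with 6 of the 8 differences above 0. Over all 12086 genes, 3.96% were called for this effect, 2339 had an unadjusted p under 0.05 and 49.8% were above 0. Macrophage markers summed to 441 to 586 in CC, 698 to 715 in CO, 516 to 802 in OC and 755 to 760 in OO, with 13 of 13 differences above 0 and 1 called. Stellate cell markers summed to 520 to 546 in CC, 640 to 654 in CO, 552 to 676 in OC and 604 to 789 in OO, with 12 of 13 above 0, 6 at an unadjusted p under 0.05 and 0 called by limma. No marker of either list was at 0. The part of these 3 marker lists, and of pancreatic and acute phase transcripts, in the difference of Onecut1 was not tested.

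Onecut2 (ENSMUSG00000045991), the relative of Onecut1, rose with the offspring diet on average. Its scaled count was 71.8, 115.4 and 89.6 in CC and 187.0 and 232.9 in CO. With obesogenic-fed dams it was 169.6, 98.1 and 119.8 in OC and 135.5, 214.6 and 124.0 in OO. CO lay wholly above CC, while OC and OO overlapped. In each group the library with the highest pancreatic sum also had the highest Onecut2. These were CC.1, CO.1, OC.0 and OO.1, with pancreatic sums of 1030, 4388, 6897 and 145. The part of pancreatic transcripts in the difference of Onecut2 was not tested. The average offspring diet difference was 0.74 (SE 0.19, 95% interval 0.33 to 1.15), a 1.67-fold rise, with an adjusted p = 0.0492 by limma.

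That call sat at the edge of the threshold. It was lost with edgeR's quasi-likelihood test (adjusted p = 0.0528), with median-of-ratios scaling (0.0503), without OC.0 and CO.1 (0.127), without OC.1 and CO.1 (0.217) and without any 1 of CC.0, CC.2, CO.0, CO.1, OC.1, OC.2, OO.0 and OO.1, and DESeq2 gave 0.00661. The difference itself stayed between 0.57 and 0.85 under all alternatives. Taken singly, CO minus CC was 1.2 (SE 0.28, adjusted p = 0.0548) and OO minus OC was 0.28 (SE 0.25, adjusted p = 0.847). The interaction of the diets for Onecut2 was -0.92 (SE 0.37, adjusted p = 0.936), so a difference between the dams' diets in this response was not shown.

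Hnf4a (ENSMUSG00000017950), the nuclear receptor at the centre of the network, was the most even of the 9 within CC, with a coefficient of variation of 3.2%. It had 752.3, 782.0 and 802.5 in CC, 786.6 and 845.2 in CO, 777.5, 845.6 and 863.8 in OC, and 762.1, 780.0 and 602.5 in OO. OO.2 was the lowest of the 11. The average offspring diet difference was -0.08 (SE 0.10, adjusted p = 0.736), with a 95% interval of -0.30 to 0.14. OO lay below CO without overlap, by 0.20 on the log2 scale (SE 0.15), and the adjusted p was 0.886. These 2 groups did not overlap, in either direction, for 20% of all genes.

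Among the pioneer factors, Foxa1 (ENSMUSG00000035451) had the lowest values. It had 7.13, 9.16 and 11.1 in CC, 24.3 and 10.3 in CO, 7.75, 9.88 and 8.37 in OC, and 12.2, 15.8 and 11 in OO. OO lay wholly above OC, but the CO libraries fell on either side of the OO range and CO.1 lay within CC. The average offspring diet difference was 0.67 (SE 0.21, 95% interval 0.21 to 1.12) and missed the threshold (adjusted p = 0.101). It passed with DESeq2 (0.0247) and without CO.1 (0.0174), where it was 0.97, and without CO.0 it was 0.36.

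Foxa2 (ENSMUSG00000037025) had 22.7, 26.9 and 21.3 in CC, 35.7 and 25.1 in CO, 17.6, 24.0 and 21.7 in OC, and 22.1, 37.6 and 21.4 in OO. CO.0 and OO.1 stood above the other 9 libraries, and the groups overlapped. The average difference was 0.33 (SE 0.16, adjusted p = 0.31). Foxa3 (ENSMUSG00000040891), the FOXA gene with the highest level per length here, had 57.9, 88.6 and 66.9 in CC, 73.8 and 109.1 in CO, 53.0, 86.7 and 80.9 in OC, and 79.6, 63.0 and 65.9 in OO. Its groups overlapped as well, and the average difference was 0.15 (SE 0.16, adjusted p = 0.672).

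Cebpa (ENSMUSG00000034957), a factor of mature hepatocytes and of nitrogen and glucose metabolism, had 167.7, 256.4 and 258.3 in CC, 282.4 and 297.3 in CO, 212.8, 247.0 and 300.9 in OC, and 256.9, 261.6 and 324.0 in OO. CO lay above CC, the lowest CC library being CC.0, and OO overlapped OC. The average difference was 0.26 (SE 0.14, adjusted p = 0.327).

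Nr5a2 (ENSMUSG00000026398) had 50.7, 64.9 and 58.7 in CC, 77.3 and 71.8 in CO, 63.9, 64.8 and 62.2 in OC, and 72.7, 64.7 and 70.9 in OO. These values kept close together, with a coefficient of variation of 2.0% in OC and 12.2% in CC. CO lay wholly above CC, by 0.36 on the log2 scale (SE 0.12, 95% interval 0.10 to 0.63, adjusted p = 0.165). On average over the dams' diets the difference was 0.24 (SE 0.08, adjusted p = 0.129), which missed the threshold.

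Prox1 (ENSMUSG00000010175), the corepressor, went no common way. It had 140.1, 141.7 and 160.2 in CC, 137.9, 115.1 and 112.6 in OC, and 123.6, 130.5 and 115.2 in OO. The 2 CO libraries were its lowest and its highest, 84.8 in CO.0 and 215.5 in CO.1. CO minus CC was -0.12 (SE 0.28, adjusted p = 0.866), and it was 0.55 without CO.0 and -0.79 without CO.1. OC lay below CC without overlap, by 0.28 (SE 0.25), and the adjusted p was 0.927. Over all genes, 11.5% had no overlap between OC and CC in either direction.

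The counts over all 9 genes follow by comparison. In CO against CC, Onecut1 was the 1 of the 9 to pass the test, beside 1.79% of all genes, and since its difference chose the list nothing is read from that count. Of the other 8, 0 passed by limma, and Onecut2, Foxa1 and Nr5a2 had an unadjusted p under 0.05, which 2030 of the 12086 genes met. The difference was above 0 for 8 of the 9, with a median of 0.36 against -0.006 over all genes. Without CO.1 together with either OC.0 or OC.1, 0 of the 9 passed, and DESeq2 called Onecut2 too. Groups did not overlap for 4 genes (Onecut1, Onecut2, Cebpa and Nr5a2), beside 35% of all genes. In OO against OC, 0 of 9 passed, beside 0.165% of all genes, and edgeR and DESeq2 also called 0. Apart from Onecut1, none had an unadjusted p under 0.05 there, which 968 of the 12086 genes met. Groups of 2 genes, Onecut1 and Foxa1, did not overlap, beside 12.7% of all genes. Since its offspring diet difference chose the list, nothing is read from the part of Onecut1 in any of these counts.

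For the average offspring diet effect, Onecut2 passed, beside 3.96% of all genes. Onecut1 passed too, and since this difference chose the list nothing is read from its call. The average is built from both of those comparisons and is not separate from them. The median of the 9 log2 differences was 0.26 for the average, against -0.001 over all genes, and 7 of the 9 were above 0. For the maternal diet, 0 of 9 passed in OC against CC (0% of all genes), 0 in OO against CO (0.0414%) and 0 for the average maternal effect (0.0331%). In OO against CO, 0 of the 9 differences were above 0, with a median of -0.20, against 51.6% and 0.008 over all genes. The interaction had 0 of 9 as well (0.0331% of all genes). Of the 9, the number with an unadjusted p under 0.05 was 0 in OC against CC, 1 in OO against CO (Onecut1), 0 for the maternal average and 2 for the interaction (Onecut1 and Onecut2). Over all 12086 genes it was 636, 715, 741 and 551 in the same order. With edgeR, DESeq2 and voom, 0 of the 9 were called in all 4. Groups did not overlap for Onecut1 and Hnf4a in OO against CO, beside 20% of all genes. In OC against CC they did not overlap for Prox1, beside 11.5% of all genes.

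**Figure D3:**
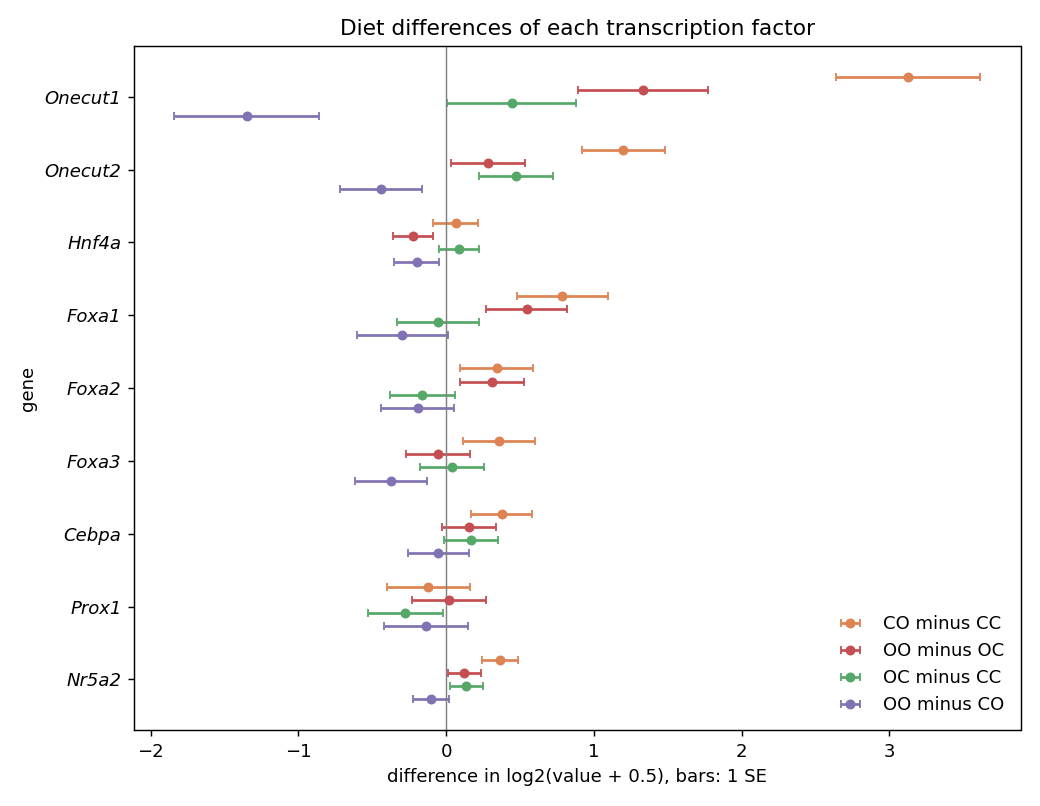
Differences in log2(value + 0.5) of each of the 9 transcription factors (points, bars 1 SE) for CO minus CC, OO minus OC, OC minus CC and OO minus CO. Onecut1 lies at 3.13 and 1.33 for the offspring diet. Hnf4a, Foxa2, Foxa3, Cebpa, Prox1 and Nr5a2 lie within 0.38 of 0 in all 4.

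Levels of different genes were compared per kilobase of annotated exon, with exon lengths from GENCODE M21, since the annotation behind the values is not given. In CC livers the order was Hnf4a at 161 per kb, Cebpa at 86.3, Foxa3 at 34.9, Prox1 at 17.6, Foxa2 at 9.97, Nr5a2 at 9.85, Onecut2 at 5.68, Foxa1 at 2.74 and Onecut1 at 1.76. The ranges of Foxa2 and Nr5a2 overlapped, as did those of Foxa1 and Onecut1, and the other neighbours did not. Onecut1 thus had the lowest mean of the 9 in CC, and with 2.27 per kb also in OC, where its range held that of Foxa1 (mean 2.61). Reads given to Gm20649 are not part of these levels. In CO it rose to rank 5, at 14.3 per kb, overlapping the ranges of Prox1 and Onecut2, its neighbours in the order. In OO it had rank 8, at 5.70 per kb, overlapping Foxa1 at 3.89. The 4 highest genes, Hnf4a, Cebpa, Foxa3 and Prox1, kept their order of means in all 4 groups.

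**Figure D4:**
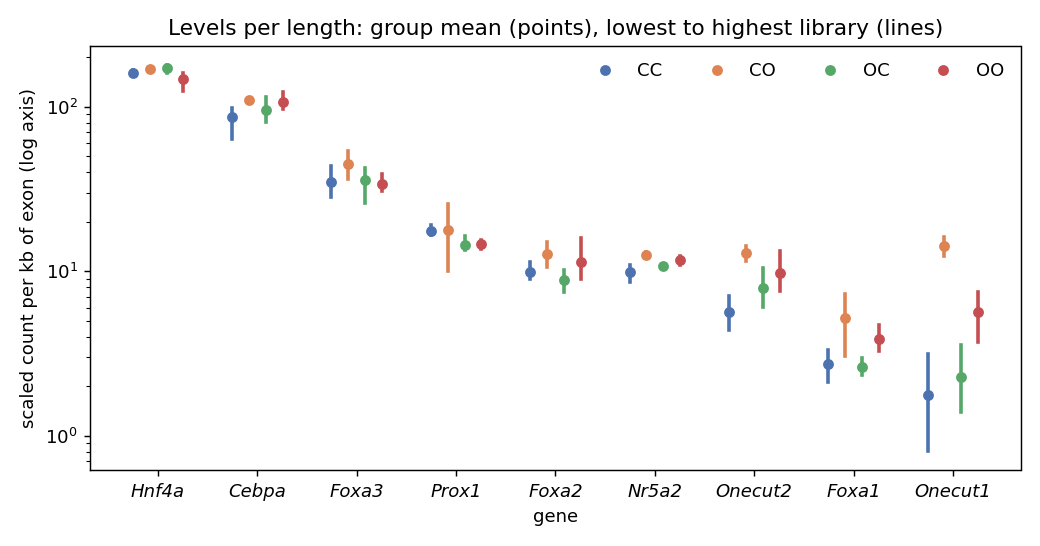
Scaled count per kilobase of annotated exon (log axis) of the 9 transcription factors, ordered by their CC mean, with the mean of each group as a point and its lowest to highest library as a line. Onecut1 moves from 1.76 in CC to 14.3 in CO, while Hnf4a stays between means of 148 and 172.

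Across the 11 libraries, which share their groups and their scaling, the other 8 genes tracked Onecut1 to different degrees. Pearson's r of the log2 values with Onecut1 was 0.79 for Nr5a2, 0.73 for Onecut2, 0.71 for Foxa1, 0.70 for Foxa2, 0.55 for Cebpa, 0.46 for Foxa3, -0.10 for Hnf4a and -0.19 for Prox1. Once each group's mean was taken out, r was 0.68 for Foxa2, 0.39 for Foxa3, 0.28 for Nr5a2, 0.24 for Foxa1, 0.19 for Cebpa, 0.09 for Onecut2, 0.0 for Hnf4a and -0.29 for Prox1. Foxa1 and Foxa2 had r = 0.77 with each other, and 0.67 within groups. These are descriptions over 11 libraries, with no test.

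Of 9326 named genes with a mean of at least 5, the profile most like that of Onecut1 was that of Slc17a3, a transporter gene (r = 0.96, 41.2 to 58.3 in CC and 75.5 to 97.5 in CO). It was followed by Gbp11, a guanylate-binding protein gene (0.96), Cldn14, a claudin of tight junctions (0.93), Mcl1, a survival factor of the BCL2 family (0.93), and Rprd1a (0.93). Mcl1 ran from 77.8 to 84.9 in CC, 125 to 132 in CO, 88.6 to 96.0 in OC and 103 to 107 in OO, the same order of groups as Onecut1 with no overlap between any of them. The most opposite profiles were those of Jade3 (r = -0.95), Wbp1l (-0.95), Rdh13 (-0.92), Akip1 (-0.91) and Ppp3ca, a calcineurin subunit (-0.91). Rdh13, a retinol dehydrogenase gene, was at 13.8 to 19.2 in CC and 8.73 to 10.3 in CO.

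The list of other transcription factors of the hepatocyte network had calls in both directions. Of 30 measured, 2 rose and 2 fell for the average offspring diet effect, beside 3.96% of all genes called, with a median log2 difference of 0.04 against -0.001 over all genes. Xbp1, a factor of the unfolded protein response and secretion, rose by 0.73 (SE 0.13, adjusted p = 0.011 by limma), with means of 177.2 ± 28.8 in CC and 410.1 ± 12.5 in CO, and of 194.8 ± 37.9 in OC and 230.4 ± 35.6 in OO (SD, n = 3, 2, 3 and 3). Cebpb, a C/EBP factor of the acute phase, rose by 0.52 (adjusted p = 0.0433), in libraries whose acute phase sum was 8972 and 41360 in CO and 5957 to 6935 in CC, and the part of that in its rise was not tested. Nr1i2, the pregnane X receptor, fell by 0.38 (adjusted p = 0.0297), and Esrra, an orphan receptor of mitochondrial metabolism, fell by 0.44 (adjusted p = 0.0443). Without OC.0 and CO.1, 0 of the 30 passed, with Xbp1 at 0.65 (adjusted p = 0.076), and without OC.1 and CO.1 2 did. Leaving out 1 library left 1 to 3 of the 4 calls, the lowest without CC.2, CO.1 or OO.0.

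Lists of genes known to be bound or regulated by these factors were drawn from general knowledge, but with earlier results of these data known. The lists also share members, so their counts are descriptions and not independent tests. Of 10 measured ONECUT1 targets, 3 fell and 0 rose for the average offspring diet effect, beside 3.96% of all genes called. None of the 10 had a difference above 0, and their median was -0.51 against -0.001 over all genes. Tat, tyrosine aminotransferase, had 2013, 1316 and 1706 in CC, 525.2 and 673.2 in CO, 1236, 1363 and 953.9 in OC, and 1058, 405.9 and 484.6 in OO. It fell by 1.23 (SE 0.23, adjusted p = 0.0149 by limma). CO lay below CC without overlap, while OO.0 reached the OC range.

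G6pc, the glucose-6-phosphatase of glucose release, had 638.6, 613.7 and 534.6 in CC, 271.5 and 172.7 in CO, 806.7, 526.8 and 569.6 in OC, and 598.8, 205.4 and 196.9 in OO. It fell by 1.28 (SE 0.27, adjusted p = 0.0248). OO.0 lay within the OC range, and the other OO libraries lay below every chow-fed liver. Tdo2, tryptophan dioxygenase, fell by 0.55 (SE 0.14, adjusted p = 0.0477), from 2919 ± 385 in CC to 1464 ± 260 in CO (SD, n = 3 and 2), and was 2101 ± 244 in OC and 1956 ± 97.6 in OO (SD, n = 3 each). Cyp7a1, the rate-limiting enzyme of bile acid synthesis, had a difference of -1.81 (SE 0.62, adjusted p = 0.133) with a wide spread, 103.8 to 610.4 in CC.

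**Figure D5:**
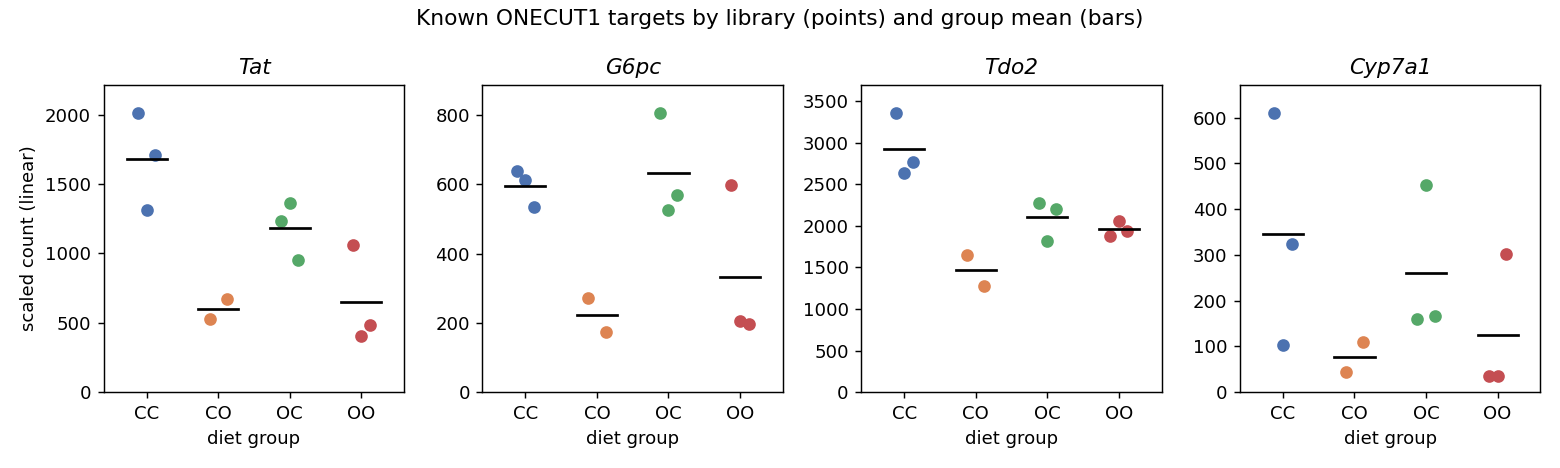
Scaled counts (linear axes from 0) of 4 known ONECUT1 targets in each library (points) by diet group, with the group mean as a bar. Tat lies at 525.2 and 673.2 in CO against 1316 to 2013 in CC, and the OO.0 point of Tat (1058) and of G6pc (598.8) lies apart from the other OO libraries, as OO.2 (302.8) does for Cyp7a1.

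For the same effect, with 3.96% of all genes called and an all-gene median of -0.001, the other target lists stood as follows. Of 24 HNF4A targets measured, 1 rose and 2 fell: Slco1b2, a bile acid and drug uptake carrier, rose by 0.65 (adjusted p = 0.0188), Baat, the bile acid conjugating enzyme, fell by 0.57 (adjusted p = 0.0111), and the other was G6pc. Of 14 FOXA targets 3 fell, Tat, G6pc and Cps1, the first enzyme of the urea cycle, by 1.06 (adjusted p = 0.0318). Of 14 C/EBP alpha targets 4 fell, those 3 and Ass1 of the urea cycle, by 1.0 (adjusted p = 0.028). Of 11 targets of NR5A2 and PROX1, 0 passed by limma or edgeR and 2 by DESeq2. An unadjusted p under 0.05 by limma was found for 5 of them, and for 2339 of all 12086 genes. List medians were -0.12 for HNF4A, -0.14 for FOXA, -0.16 for C/EBP alpha and 0.04 for NR5A2 and PROX1.

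These target counts depended on which libraries were kept. Leaving out CC.0, CC.2, CO.1, OC.0 or OO.1 left 1 of the 3 ONECUT1 targets and 1 of the 3 FOXA targets called. The 4 C/EBP alpha targets became 1 without CC.0, CC.2, CO.1 or OC.0 and 2 without OO.1, and the 3 HNF4A targets 1 without CC.0 or CC.2. Tat passed whichever 1 library was left out, while Tdo2 passed in those fits only without CO.0 or without OC.1. Without OC.0 and CO.1, and so with 9 libraries, 0 targets of any list passed, and without OC.1 and CO.1 only 1 did, an HNF4A target. Tat then fell by 1.30 (adjusted p = 0.0867) and by 1.26 (0.0617), so its difference kept its size while the call was lost. Of the secreted and identity genes of hepatocytes, 3 of 23 fell (Tat, Ass1 and Cps1) and 0 rose, beside 3.96% of all genes called. There 7 of the 23 had a difference above 0, against 49.8% of all genes, and the median was -0.12. An unadjusted p under 0.05 was found for 7 of the 23, and for 2339 of all 12086 genes. Serpinc1, antithrombin, had -0.38 (adjusted p = 0.0871). Of the fetal liver genes, 3 of 11 were measured, and Peg3, an imprinted gene, fell by 0.94 (adjusted p = 0.0406), a call lost in 9 of 22 alternatives, among them leaving out CC.0, CC.1, CC.2, CO.0, CO.1, OC.0 or OC.2.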

How the data were processed

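The authors deposited a signal per gene and library, which by its values is an estimated count scaled by a factor particular to the library. Its name says CPM, but library sums differed. In each library 95.59% to 97.35% of values were a whole number of steps of 1 read (tolerance 0.01). A step was 0.0334 to 0.276, so a floor of 3 reads lay at 0.100 to 0.829, which covers counting error only. Onecut1 rested on 24 to 456 reads per library. Alignment used Bowtie 1.2.3 and mm8, per the submitters' processing notes. No source used here gives the counter, strand setting, annotation or scaling, and no coordinates of that build are used.

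Column names give the group but not the labelled sample, so nothing pairs libraries. The main test was limma 3.58.1 (R 4.3.3): a moderated test with intensity trend on log2(value + 0.5), all 11 libraries, 1 mean per group, 7 residual and 4.66 prior degrees of freedom, Benjamini-Hochberg over 12086 genes at 0.05. Fold changes on that scale understate those of low genes. The test had been planned for 12 samples of CPM and was kept. In simulated data most of the changes put in were recovered. The simulation set the same dispersion for all genes, equal changes in CO and OO, and no libraries that stood apart. It therefore does not show how the test behaves with libraries like those here.

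Alternatives were edgeR 4.0.16, DESeq2 1.42.0 and voom on the recovered reads (rounded), a pseudocount of 0.1 or 2, no filter, a minimum of 5 (10238 genes), median-of-ratios scaling, only the groups compared, and leaving out libraries. Leaving out a CO library leaves 1, assumed to vary like the other groups. Symbols came from a table matching 11965 genes.

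Members and gene lists were chosen with earlier results of these data known. Named were all members, up to 4 genes per list with the smallest p for the average offspring diet effect plus those called in any comparison (up to 6), and the 5 genes most and least correlated with Onecut1. Of 15 lists, those of other cell types had 0 called of 14 endothelial, 13 stellate and 8 cholangiocyte markers, 1 of 13 macrophage (Mpeg1) and 1 of 4 neutrophil markers (S100a8), 4 of 16 acute phase genes and 0 of 16 acinar markers for the average offspring diet effect. Over all genes 3.96% were called for that effect.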

Additional observations from a re-analysis of the deposited data

How the results depend on the processing

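No paired analysis was possible because the columns carry no replicate numbers of the labels. The 57 results were recomputed to 1273 values under the alternatives, of which 1021 kept direction and side of the threshold (counts: stayed within 1.5 times), 68 of Onecut1's offspring diet differences, given no test, kept direction, 90 lost and 14 gained a call, 73 counts moved by over 1.5 times and 7 reversed; the cause was not tested beyond the fewer libraries of some fits. Onecut1's average offspring diet difference ran from 1.98 to 2.50. Genes among the 9 called in CO against CC (1) became 2 with DESeq2, 0 without OC.0 and CO.1, 0 without OC.1 and CO.1, and 0 to 2 leaving out 1 library (0 without CC.0, CC.2, CO.0 or CO.1). For the average offspring diet effect (2) they became 1 with edgeR, 1 with median-of-ratios scaling, 3 with DESeq2, and 1 to 2 leaving out 1 library. Prox1 changed sign in CO minus CC with edgeR (0.0248) and DESeq2 (0.0277), and in the average with edgeR (0.0192) and DESeq2 (0.0164). Leaving out 1 library, Prox1 ran from -0.79 to 0.55 in CO minus CC and from -0.39 to 0.28 in the average. Foxa3's average became -0.10 without OC.0 and CO.1.

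Over all genes, CO against CC gave 216 calls, 466 with DESeq2, 104 with voom, 92 with only those groups, 16 and 14 without the library pairs and 19 to 233 leaving out 1. The average offspring diet effect gave 479, 770 with DESeq2, 134 without OC.0 and CO.1, 250 without OC.1 and CO.1, and 253 to 483 leaving out 1. OO against OC gave 20, 106 with DESeq2, 31 with voom and 12 with only those groups. OO against CO gave 5 and 16 with DESeq2, the maternal average 4 and 10, and the interaction 4 and 6. Fits with only the groups compared give no average or interaction. The depth limits Foxa1 and Onecut1 most, with as few as 45 and 24 reads.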

Other observations

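Within the bile duct list, where 6 of 8 measured markers had an average offspring diet difference above 0 and 2 did not, the markers with the smallest p for the average offspring diet effect were higher in obesogenic-fed livers and missed the threshold by limma. Bicc1 had 4.53 ± 0.67 in CC and 5.59 ± 1.28 in OC (SD, n = 3 each), and 8.11 ± 1.80 in CO and 7.79 ± 1.34 in OO (SD, n = 2 and 3), with an adjusted p = 0.0545. Spp1, osteopontin, had 29.0 ± 8.23, 32.8 ± 7.29, 49.6 ± 5.13 and 49.8 ± 16.5 in the same order (adjusted p = 0.0652), and Pkhd1, fibrocystin, had 17.2 ± 1.93, 18.9 ± 0.96, 23.0 ± 1.69 and 27.1 ± 7.85 (adjusted p = 0.0862).

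Prox1 and Foxa1 ran in opposite directions in the CO libraries: CO.0 had the highest Foxa1 (24.3) and the lowest Prox1 (84.8) of the 11, and CO.1 the highest Prox1 (215.5). Over all 11 libraries their r was -0.48, and -0.71 with group means taken out, given as a description with no test.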
